A study of Mus musculus with 6 samples.

Results

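The gp130 cytokines, their receptor chains and the feedback inhibitor Socs3 were followed in mouse spinal cord after a crush injury. The 9 genes were chosen by name as members of the interleukin-6 family, leaving out ligands named as interleukins. They are the ligands Lif, Osm, Clcf1 and Cntf, the receptor chains Il6ra, Il6st, Lifr and Osmr, and the inhibitor Socs3. All 9 had a row among the 36629 genes listed.

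RNA-seq libraries were made from whole pieces of cord covering segments T8 to T12, taken from C57/BL6 mice 3 days after surgery. The mice were 3 to 5 weeks old when housed. The injured group (SCI, 3 libraries) had the cord exposed at T9 and T10 and crushed briefly with a vascular clip, and the sham group (3 libraries) had the exposure by laminectomy and no crush. The labels name no allele, transgene or drug beyond the anaesthetic, which both groups had. They say neither how many animals each piece came from nor their sex, so p-values measure the spread between these libraries. The unit is FPKM as computed by the authors, that is fragments scaled both to the length of a gene and to the total of its library. Means carry the SD over the 3 libraries of a group (n = 3).

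Cytokines of this family signal through Il6st, the gene of gp130, a chain found on most cells. Il6ra brings interleukin-6 to gp130, Lifr pairs with gp130 to receive LIF, and Osmr pairs with it to receive oncostatin M. CNTF and CLCF1 first bind Cntfr and then recruit both gp130 and Lifr. The joined chains activate JAK kinases and the transcription factor STAT3, which switches on Socs3, and SOCS3 then binds gp130 and JAK and dampens the signal. In the nervous system the family is known for its part in the reaction of astrocytes to injury, in neuronal survival and in the response of injured axons.

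Of the 9 members, 7 were higher and 2 were lower in the injured cord. The higher ones were Socs3, Clcf1, Lif, Osm, Osmr, Il6ra and Il6st, and the lower ones were Cntf and Lifr. The test was limma on log2(FPKM + 1), with p-values adjusted over 17435 genes and 0.05 as the threshold. In the same fit 26.7% of all genes tested were called higher and 30.8% lower, so that 57.5% were called. For each of the 9 members the SCI libraries lay wholly to one side of the sham libraries, above for 7 and below for 2. Over all genes tested this was so for 67.6%, above for 30.7% and below for 36.9%. The median log2 change was 2.14 over the 9 members, against −0.076 over all genes tested. Lif and Osm were under 1 FPKM in every sham library and entered the test only through the SCI libraries, so that those 2 had to differ. Fewer cells of a type and less RNA per cell cannot be told apart in these pieces of tissue, and neither can more cells and more RNA.

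**Figure D1:**
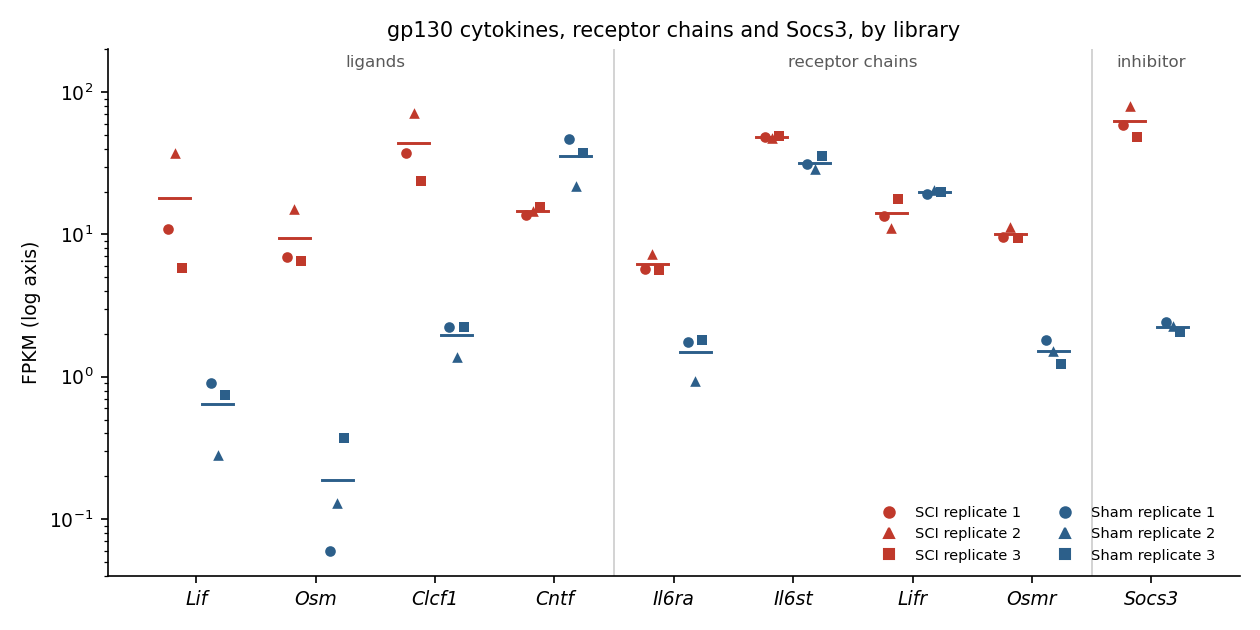
FPKM of the 9 members on a log axis, with SCI libraries in red on the left and sham libraries in blue on the right of each pair. The marker shape gives the replicate and the line the group mean. Socs3 lay between 48.4 and 80.1 FPKM in SCI libraries and between 2.07 and 2.43 in sham libraries, and Cntf and Lifr are the pair with SCI below sham.

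The libraries differed in what else the pieces held, and whether this bore on the members was not tested. Neuronal and oligodendrocyte markers were present in all 6 libraries, as the labelled tissue should have, and the 5 T-cell markers summed to at most 0.88 FPKM. Haemoglobin genes took 6.16% of the FPKM in SCI replicate 2, against 0.21% and 0.66% in the other SCI libraries and 0.11% to 0.13% in sham libraries. Of 7 neutrophil markers, 5 were tested and all 5 were higher, beside 26.7% higher over all genes tested. Of these, 1 entered the test only through SCI libraries, and Ly6g and Mpo were too low to test. The 7 neutrophil markers summed to 251, 605 and 130 FPKM in SCI replicates 1, 2 and 3, against 15.1 to 40.9 in sham libraries. Monocyte and macrophage markers, of which 5 of 6 entered the test only through SCI libraries and so had to differ, summed to 1288, 2321 and 1555 FPKM in SCI replicates 1, 2 and 3, against 93.5 to 130 in sham libraries. SCI replicate 3 stood apart in other markers. Those of skeletal muscle summed to 34.8, 8.41 and 332 FPKM in SCI replicates 1, 2 and 3, against 13.3 to 84.5 in sham libraries. Markers of sensory ganglion neurons summed to 30.8, 31.2 and 111 FPKM in SCI replicates 1, 2 and 3, against 55.6 to 66.5 in sham libraries, and Scn10a and Mrgprd were at 0 in all libraries but that one.

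With 1 FPKM added, Socs3 had the largest log2 change of the members. With 0.1 FPKM added, that of Osm (5.10) was above that of Socs3 (4.70). Socs3 had 58.7, 80.1 and 48.4 FPKM in SCI replicates 1, 2 and 3, against 2.43, 2.26 and 2.07 in sham replicates 1, 2 and 3. The sham libraries were close to each other, and every SCI library stood far above them. The means were 62.4 ± 16.2 FPKM in SCI and 2.25 ± 0.18 in sham libraries, a 27.7-fold difference. The log2 change was 4.25 (SE 0.17, limma adjusted p = 1.2e-05), the rank 40 among the 17435 changes ordered from the largest rise. In SCI libraries Socs3 had the highest mean of the 9 members, while in sham libraries it stood behind Cntf, Il6st and Lifr.

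The ligand Clcf1, cardiotrophin-like cytokine factor 1, was also far higher in the injured cord. It had 37.0, 71.3 and 23.9 FPKM in SCI replicates 1, 2 and 3, against 2.24, 1.38 and 2.24 in sham replicates 1, 2 and 3. Every SCI library was above every sham library, and the injured libraries spread widely among themselves. The log2 change was 3.81 (SE 0.36, limma adjusted p = 1.9e-04), and 3.40 without SCI replicate 2.

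Lif, leukaemia inhibitory factor, had 10.9, 37.5 and 5.77 FPKM in SCI replicates 1, 2 and 3, against 0.91, 0.28 and 0.75 in sham replicates 1, 2 and 3. SCI replicate 2 held 4.49 times the mean of the other 2 SCI libraries, and the lowest SCI library was still above all sham libraries. The log2 change was 3.17 (SE 0.57, limma adjusted p = 0.0029), the widest error of the 9 members. It was 2.47 without SCI replicate 2 and 3.72 without SCI replicate 3, with the call kept in both.

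Osm, oncostatin M, a cytokine made mainly by myeloid cells, had 6.99, 15.0 and 6.48 FPKM in SCI replicates 1, 2 and 3. Sham replicates 1, 2 and 3 were at 0.06, 0.13 and 0.37 FPKM, so that Osm was the lowest member in sham cord. The log2 change was 3.06 (SE 0.29, limma adjusted p = 2.0e-04), and 2.71 without SCI replicate 2. With sham values this far under the added 1 FPKM, the size depends on that addition, and it was 5.10 with 0.1 added in its place.

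Of the 7 members called higher, 6 had their top value in SCI replicate 2, Il6st being the exception. That library held the top SCI value for 25.5% of all genes tested and for 60.2% of those called higher. It also held the highest sums of haemoglobin, neutrophil and macrophage markers. Fibroblast markers were highest there too, with sums of 285, 590 and 333 FPKM in SCI replicates 1, 2 and 3, against 43.1 to 105 in sham libraries. Neuronal markers summed to 932, 725 and 1143 FPKM in SCI replicates 1, 2 and 3, against 2250 to 2651 in sham libraries. Oligodendrocyte markers summed to 5356, 4306 and 5329 FPKM in SCI replicates 1, 2 and 3, against 7325 to 7929 in sham libraries, so that both lists were lowest in SCI replicate 2. The part of these cells in the differences between SCI libraries was not tested. Without SCI replicate 2, the same 7 members were called higher.

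Cntf, ciliary neurotrophic factor, a cytokine of astrocytes and Schwann cells, went the other way from the other ligands. It had 13.7, 14.7 and 15.7 FPKM in SCI replicates 1, 2 and 3, against 46.8, 21.9 and 37.4 in sham replicates 1, 2 and 3. The SCI libraries lay within a narrow band, and the sham libraries spread widely above it. The means were 14.7 ± 0.995 FPKM in SCI and 35.4 ± 12.6 in sham libraries, and the log2 change was −1.15 (SE 0.25, limma adjusted p = 0.0061). In sham cord Cntf had the highest mean of the 9 members, although its range overlapped that of Il6st. In SCI libraries Socs3, Il6st, Clcf1 and Lif had higher means.

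Markers of Schwann cells, which wrap axons of the nerve roots, were set beside Cntf. Prx, periaxin, had 11.3, 17.1 and 10.9 FPKM in SCI replicates 1, 2 and 3, against 113, 33.0 and 98.8 in sham replicates 1, 2 and 3. Ncmap, a membrane protein of peripheral myelin, had 3.94, 1.35 and 3.33 FPKM in SCI replicates 1, 2 and 3, against 13.6, 4.79 and 16.3 in sham replicates 1, 2 and 3. Prx and Ncmap were thus lower in the injured cord, while the Schwann marker Cdh19 was higher, at 21.5 to 29.0 FPKM in SCI and 12.2 to 17.0 in sham libraries. None of the 3 was at 0, and each was lowest in sham replicate 2 among the sham libraries, as Cntf was. Fibroblast markers shared this, with sums of 105, 43.1 and 97.5 FPKM in sham replicates 1, 2 and 3. Among SCI libraries Cntf was highest in replicate 3, Prx and Cdh19 in replicate 2 and Ncmap in replicate 1. Without sham replicate 2 the log2 change of Cntf was −1.45, and without sham replicate 1 it was −0.92. Of the 6 astrocyte markers, 3 were higher and 3 lower in the injured cord, beside 26.7% and 30.8% over all genes tested. Gfap had 2727 to 2850 FPKM in SCI libraries, most of the markers' sum there, and 535 to 764 in sham libraries. The other 5 summed to 561 to 629 FPKM in SCI and 591 to 651 in sham libraries, ranges that overlapped. The part of Schwann cells or astrocytes in the fall of Cntf was not tested.

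**Figure D2:**
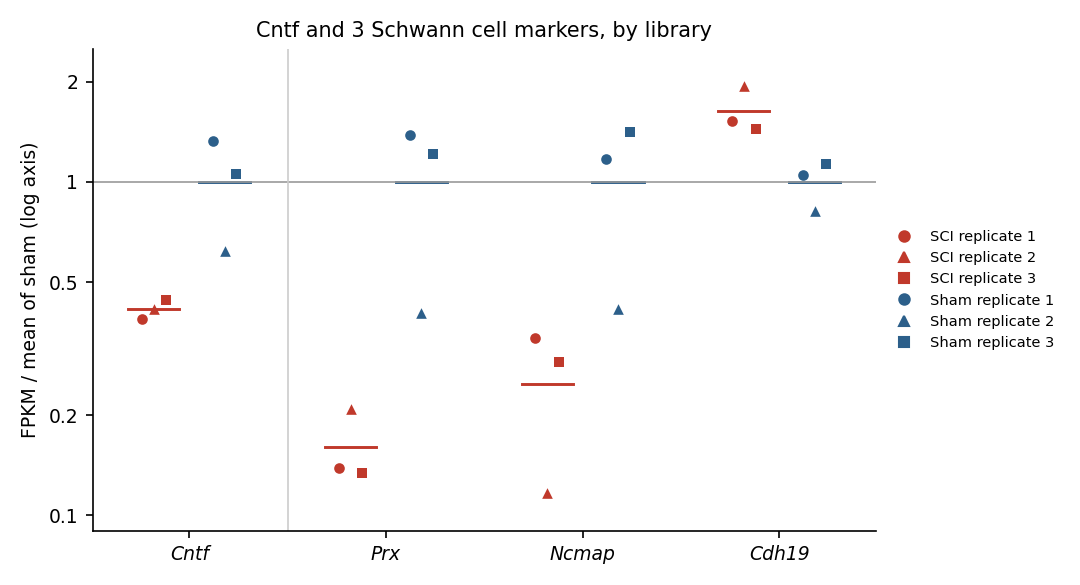
FPKM of Cntf and of 3 Schwann cell markers in each library, divided by the gene's own sham mean, on a log axis. SCI libraries are red and on the left, sham libraries blue and on the right, with the group mean as a line. For Cntf, Prx and Ncmap all 3 SCI libraries lie below all 3 sham libraries, for Cdh19 they lie above, and sham replicate 2 is the lowest sham library for each gene.

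The row of Cntf overlaps another. A second row named Zfp91 covers both the Zfp91 gene and Cntf on the same strand, and it was at 0 in all SCI libraries and at 4.88, 0 and 1.89 FPKM in sham replicates 1, 2 and 3. Reads of Cntf could have been shared with it, and the row was above 0 only in sham libraries. The row of Zfp91 alone had 44.4 to 46.2 FPKM in SCI and 45.7 to 48.9 in sham libraries. Clcf1 shares 311 exonic bases (8.17% of its own) with Gm45928, which was at most 0.54 FPKM, and Il6ra shares 242 (2.80%) with the antisense gene Gm42809, at most 0.13 FPKM. No row overlapped the other 6 members.

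Of the receptor chains, the shared chain Il6st rose, Osmr and Il6ra rose by more, and Lifr fell. Il6st had 48.7, 47.7 and 49.5 FPKM in SCI replicates 1, 2 and 3, against 31.4, 28.9 and 35.6 in sham replicates 1, 2 and 3. The SCI libraries agreed closely with each other and all stood above sham. The log2 change was 0.59 (SE 0.089, limma adjusted p = 0.0014), a 1.52-fold difference of the means. Among the receptor chains that are members, Il6st was the most abundant in both groups. Cntfr, a chain outside the members, stood above it in every sham library.

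Osmr had 9.53, 11.4 and 9.50 FPKM in SCI replicates 1, 2 and 3, against 1.82, 1.52 and 1.23 in sham replicates 1, 2 and 3. The groups were far apart and the spread within each was small. The means of Osmr were 10.1 ± 1.07 FPKM in SCI and 1.52 ± 0.295 in sham libraries, and the log2 change was 2.14 (SE 0.13, limma adjusted p = 3.1e-05). Il6ra, the interleukin-6 receptor chain, had 5.73, 7.34 and 5.59 FPKM in SCI replicates 1, 2 and 3, against 1.75, 0.94 and 1.81 in sham replicates 1, 2 and 3. Its log2 change was 1.54 (SE 0.18, limma adjusted p = 4.9e-04), and it had the lowest mean of the 4 receptor chains in both groups, with a range that overlapped that of Osmr in sham cord.

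Lifr had 13.4, 11.2 and 17.6 FPKM in SCI replicates 1, 2 and 3, against 19.3, 20.6 and 19.9 in sham replicates 1, 2 and 3. SCI replicate 3 came close to the sham libraries, and SCI replicate 2 was the lowest. The log2 change was −0.49 (SE 0.15, limma adjusted p = 0.025), the smallest change and the highest adjusted p of the 9. The call ended without SCI replicate 1 (log2 change −0.47, limma adjusted p = 0.068) or without any 1 sham library (−0.52, −0.47 and −0.50 without replicates 1, 2 and 3, with limma adjusted p of 0.058, 0.074 and 0.067). The change of Lifr was −0.35 without SCI replicate 2 and −0.66 without SCI replicate 3, and both passed.

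Osmr and Lifr, whose products both pair with gp130, therefore stood in a different proportion in the injured cord. The level of Osmr divided by that of Lifr was 0.712, 1.02 and 0.539 in SCI replicates 1, 2 and 3, against 0.0943, 0.0738 and 0.0620 in sham replicates 1, 2 and 3. The ratio averaged 0.756 ± 0.241 in SCI and 0.0767 ± 0.0164 in sham libraries, and its mean difference on the log2 scale was 3.27, or 9.67-fold. The groups had to lie apart, since every SCI library was above all sham libraries for Osmr and below them for Lifr. The exact two-sided permutation test could then only give p = 0.10, the smallest value that 3 libraries against 3 allow. The level of Il6st divided by the sum of Lifr, Osmr and Il6ra was 1.60 ± 0.0945 in SCI and 1.39 ± 0.150 in sham libraries. Those groups overlapped (1.51 to 1.70 in SCI, 1.26 to 1.55 in sham), and the exact two-sided permutation p was 0.20.

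**Figure D3:**
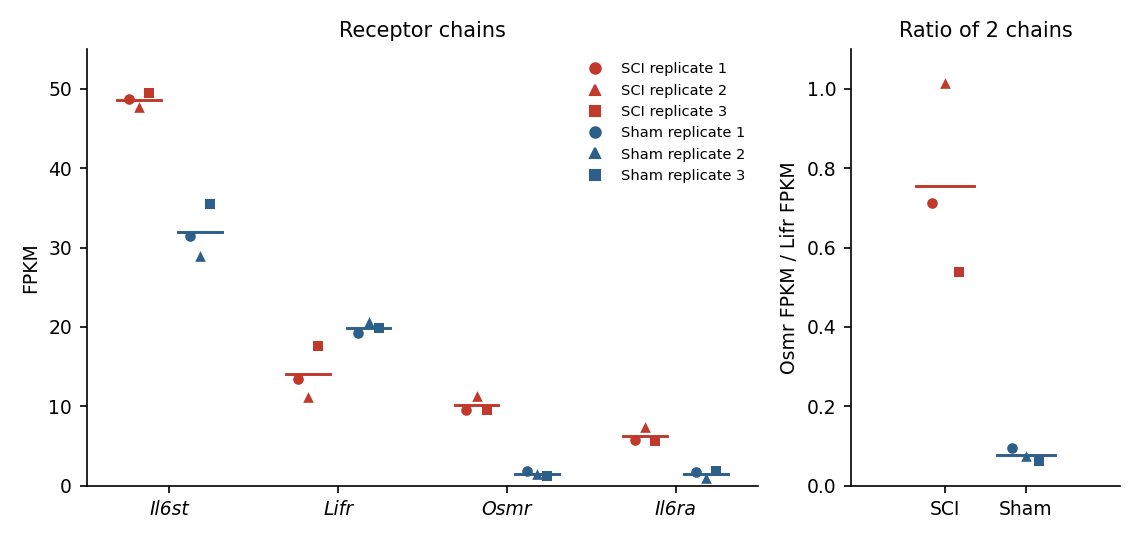
Left, FPKM of the 4 receptor chains by library, SCI in red on the left and sham in blue on the right of each pair, with group means as lines. Right, the Osmr level divided by the Lifr level in each library, which lay between 0.539 and 1.02 in SCI and between 0.0620 and 0.0943 in sham libraries.

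The order of levels also differed. In sham cord Cntf and Il6st stood at the top with overlapping ranges, Lifr followed apart from both, and the other 6 members were all at or under 2.43 FPKM. Among these, Socs3, Clcf1, Osmr and Il6ra had ranges that overlapped from one to the next, and Lif and Osm were lower still. In SCI cord the order by mean was Socs3, Il6st, Clcf1, Lif, Cntf, Lifr, Osmr, Osm and Il6ra. The range of each overlapped that of the next. Within every SCI library, however, Clcf1 stood above Lif and Osm above Il6ra, while the other neighbours changed places in some library. Differences between neighbours were not tested.

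**Figure D4:**
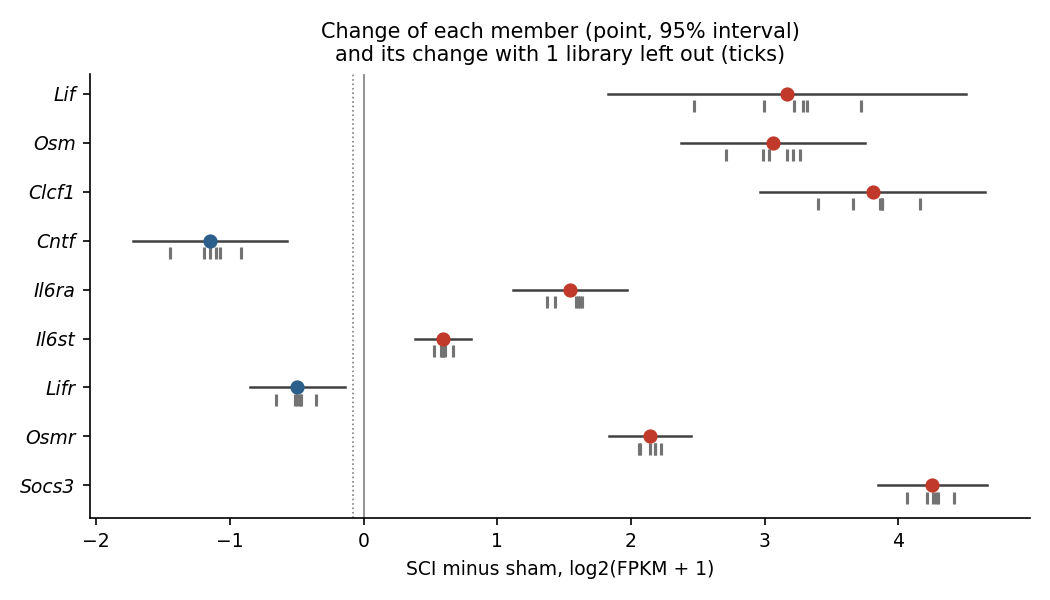
Log2 change of each member, SCI minus sham on log2(FPKM + 1), with its 95% interval from limma, and below it as ticks the change with each of the 6 libraries left out. The solid line marks 0 and the dotted line −0.076, the median of all genes tested. The interval is widest for Lif (1.83 to 4.51) and narrowest for Il6st (0.38 to 0.80).

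On GRCm38, 2 pairs of members are neighbours. Osm (ENSMUSG00000058755, chromosome 11, 4236420 to 4241026) and Lif (ENSMUSG00000034394, chromosome 11, 4257557 to 4272514) are both on the plus strand with 16530 bases and no other listed gene between them, and both rose. Osmr (ENSMUSG00000022146, chromosome 15, 6813577 to 6874969, minus strand) and Lifr (ENSMUSG00000054263, chromosome 15, 7090614 to 7197489, plus strand) are 215644 bases apart with no listed gene between them, and Osmr rose while Lifr fell. Clcf1 (ENSMUSG00000040663, 4214238 to 4223490, plus strand) and Cntf (ENSMUSG00000079415, 12763660 to 12765632, minus strand) are on chromosome 19. Socs3 (ENSMUSG00000053113) is also on chromosome 11, at 117966079 to 117970047 (minus strand). Il6ra (ENSMUSG00000027947) is on chromosome 3, at 89864059 to 89913196 (minus strand), and Il6st (ENSMUSG00000021756) on chromosome 13, at 112464070 to 112510086 (plus strand). All 9 are protein-coding, and values are totals over each gene, whose annotated transcripts number from 1 for Cntf to 10 for Il6st.

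RefSeq start sites on GRCm38.p6 were at hand for 7 of the 9 members, in 8 windows of 250 bases upstream. They were searched for TTCNNNGAA, the palindrome to which STAT proteins bind, and for TGACTCA on both strands, the site of AP-1 factors. The STAT motif was in 1 of the 8 windows, that of Socs3, and in 7.02% of 32851 windows of all genes. The AP-1 motif was in 2 of the 8, those of Lif and Cntf, and in 4.46% of all windows. The 3 windows that held a motif are shown 5′ to 3′ on the strand of the gene, ending at the base before the start site, with the motif in capitals. They are chr11:117969367-117969616 on the minus strand for Socs3, chr11:4257318-4257567 on the plus strand for Lif and chr19:12765633-12765882 on the minus strand for Cntf.
Socs3: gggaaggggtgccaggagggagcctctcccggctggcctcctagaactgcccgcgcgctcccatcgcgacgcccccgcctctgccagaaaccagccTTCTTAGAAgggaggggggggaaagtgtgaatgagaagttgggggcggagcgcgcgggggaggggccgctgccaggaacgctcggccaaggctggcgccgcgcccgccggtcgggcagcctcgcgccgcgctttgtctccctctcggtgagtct
Lif: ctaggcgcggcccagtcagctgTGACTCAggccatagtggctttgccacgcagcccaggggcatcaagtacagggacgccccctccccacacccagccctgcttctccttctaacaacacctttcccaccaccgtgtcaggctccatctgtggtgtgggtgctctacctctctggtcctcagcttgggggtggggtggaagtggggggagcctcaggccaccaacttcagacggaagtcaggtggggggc
Cntf: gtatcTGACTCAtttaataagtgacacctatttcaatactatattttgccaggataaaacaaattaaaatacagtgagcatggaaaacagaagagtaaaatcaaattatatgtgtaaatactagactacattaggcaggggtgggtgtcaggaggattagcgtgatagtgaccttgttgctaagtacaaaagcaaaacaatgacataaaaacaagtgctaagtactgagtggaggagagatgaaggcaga

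The motif begins 154 bases upstream of the start site in Socs3, 228 in Lif and 245 in Cntf. The same AP-1 letters thus stand before a gene that rose and one that fell. The RefSeq start site lies 681 bases inside the gene as listed for Socs3, 656 for Osmr and 11 for Lif. Those of Lifr lie 38958 and 49928 bases inside it. G and C make up 71.6% of the Socs3 window, 63.6% of that of Lif and 35.6% of that of Cntf. A match is a description of the letters and not a bound site.

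The family has other ligands and chains. Of 7 other ligands and soluble partners with a row, 5 were tested. Of these, 3 were higher, among them Il11 and Il6, beside 26.7% higher over all genes tested. The 3 entered the test only through SCI libraries and so had to differ. Il11, interleukin-11, had 58.4, 204 and 11.1 FPKM in SCI replicates 1, 2 and 3, against 0.48, 0.91 and 0.27 in sham replicates 1, 2 and 3. Its log2 change was 5.11 (SE 0.89, limma adjusted p = 0.0025), the rank 12 from the largest rise, and it was 4.13 without SCI replicate 2 and 6.17 without SCI replicate 3. Il6 had 5.69, 16.5 and 2.18 FPKM in SCI replicates 1, 2 and 3, against 0.06, 0.12 and 0.06 in sham replicates 1, 2 and 3. The log2 change of Il6 was 2.74 (SE 0.54, limma adjusted p = 0.0044), 2.09 without SCI replicate 2 and 3.33 without SCI replicate 3. Il11 and Il6 were highest in SCI replicate 2, like Lif, Osm and Clcf1.

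Cntfr, the chain that binds CNTF and CLCF1, fell to 23.7 ± 3.89 FPKM in SCI libraries, against 50.7 ± 4.55 in sham libraries (log2 change −1.08, SE 0.13, limma adjusted p = 5.2e-04). The ligand Cntf and its receptor chains Cntfr and Lifr were thus all lower, although Lifr lost its call in 5 of 14 alternatives. Clcf1, another ligand of those chains, was higher. Lif, which Lifr receives with gp130, was higher as well. Il11ra1, the receptor of interleukin-11, had 16.7 ± 1.38 FPKM in SCI and 16.7 ± 1.14 in sham libraries, and its log2 change had a 95% interval of −0.22 to 0.22. Il27ra and Il31ra were at most 1.02 FPKM and were not tested.

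Of 12 signal transducers, 4 were higher, 3 lower and 5 did not pass, beside 26.7% higher and 30.8% lower over all genes tested, and the median log2 change was 0.26. The 7 called of 12 are near the 57.5% called over all genes tested. Stat3 had 49.2 ± 1.89 FPKM in SCI and 19.5 ± 0.35 in sham libraries (log2 change 1.29, SE 0.069, limma adjusted p = 1.9e-05). Shc1, an adaptor that links receptors to the MAP kinase route, had a change of 1.32 (SE 0.15), which lay within the error of that of Stat3, and Jak2 (0.44) and Stat5a (0.81) were also higher. Jak1, the main kinase bound to gp130, was lower (−0.23, limma adjusted p = 0.022), as were Gab1 (−0.43) and Sos1 (−0.63). The 2 most abundant, Grb2 and Ptpn11, did not pass, with log2 changes of −0.086 and 0.095, although Ptpn11 did under median-ratio scaling (0.18, limma adjusted p = 0.041). Under that scaling 8 of the 12 were higher, against 4, and 2 were lower, against 3. Over all 14 alternatives 2 to 3 were lower.

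Of 11 other feedback inhibitors tested, 6 were higher and 2 lower, beside 26.7% and 30.8% over all genes tested, and the median log2 change was 0.34. The largest change was that of Ptpn6, the phosphatase SHP-1 of blood cells, at 33.6 ± 4.48 FPKM in SCI and 3.67 ± 0.562 in sham libraries (log2 change 2.89). It was followed by Ptpn1 (1.28) and Ptpn2 (0.92), phosphatases that act on JAK kinases. Within the SOCS family, Socs2 (0.68), Socs4 (0.48) and Socs6 (0.34) were higher and Socs5 (−0.40) was lower. Socs7 (−0.24) and Cish (0.25) did not pass, and Socs1 was too low to test.

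Of the 30 genes known elsewhere as STAT3 targets, 28 were tested, 27 were higher and none lower, beside 26.7% higher over all genes tested, and the median log2 change was 2.41. Of the 28, 3 entered the test only through SCI libraries. Timp1 (6.93) and Sprr1a (5.84) had the largest changes, and Gfap and Serpina3n the highest levels. Il4ra, a receptor chain that gp130 signalling is known to raise in myeloid cells, had a log2 change of 3.11. Vegfa did not pass (log2 change 0.45), except without SCI replicate 3 (0.81, limma adjusted p = 0.033), and it was at 95.5 FPKM in SCI replicate 2 against 49.6 and 32.6 in the other SCI libraries. Fgg and Reg3b were at most 0.11 FPKM and were not tested. These genes answer to other signals as well, Gfap is also among the astrocyte markers, and the list was compiled with earlier results of these data known. Which of the changes pass through gp130 was not measured.

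**Figure D5:**
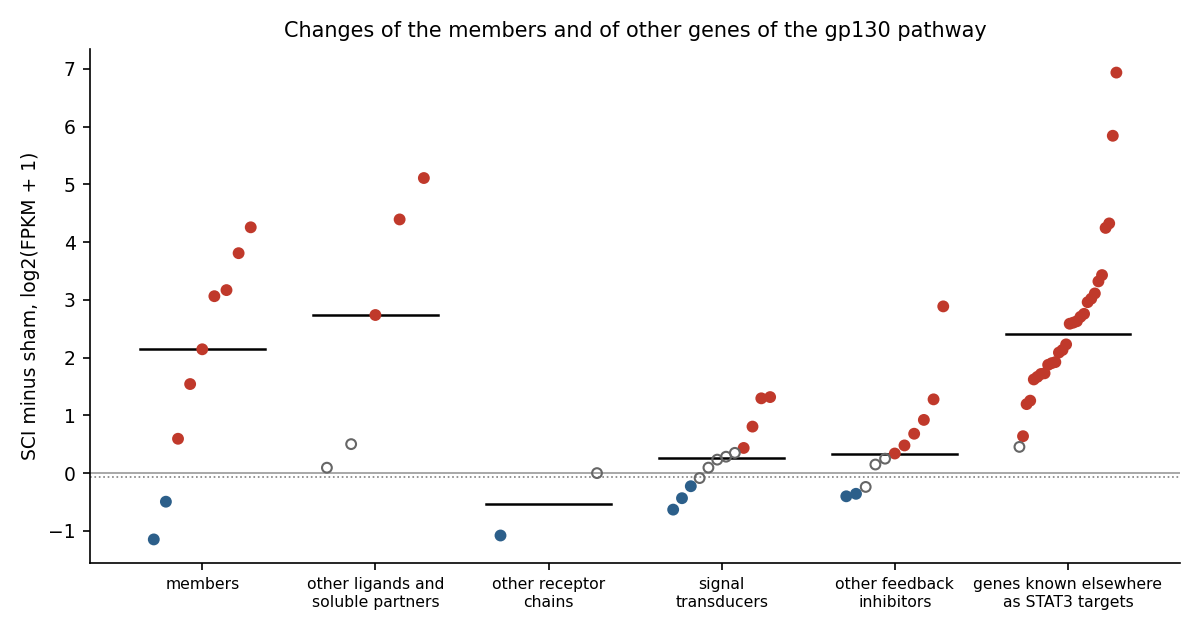
Log2 change, SCI minus sham, of the tested genes of each list. Filled points passed the threshold (red higher, blue lower), open points did not, black lines are list medians and the dotted line is the median of all genes tested (−0.076). Signal transducers centre near 0 (median 0.26) and STAT3 target genes lie at a median of 2.41.

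The genes most alike in pattern were found for each member as the smallest root mean square difference over the 6 libraries, on log2(FPKM + 1) less the sham mean, among tested genes with a mean of at least 5 FPKM. For Socs3 they were Lilr4b, Mki67 and Adam8, at differences of 0.15, 0.17 and 0.17. Osmr was closest to Sbno2 (0.078), Igfbp7 (0.090) and Fes (0.091). Lif was closest to Il1b (0.30), and Clcf1 to Fbln2 (0.12) and Plau (0.18). For Osm the nearest was Loxl2 (0.15), for Cntf Ngb (0.18), for Il6ra Rpl41 (0.070), for Il6st Mavs (0.019) and for Lifr Cptp (0.055). The measure follows mostly the size of the change between the groups, and many genes changed.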

How the data were processed

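Per the file headers, the authors deposited 1 FPKM value for each gene in each library, to 2 decimals. The submitters' processing notes list cutadapt (1.9), HISAT2 (2.0.4), UMI-tools and StringTie (1.3.4d) among the tools, and the build mm9, without the role or order of each tool. Gene positions in the files are those of GRCm38: of 36502 identifiers also found in GENCODE M21, 91.6% matched in position and strand. Libraries were poly(A)-selected and dUTP-stranded with molecular identifiers, per the labels' protocols; the strand setting of the counting is not given in the sources used here.

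FPKM hold no counts, and low genes showed no common step (the fullest bin of log2 ratios to sham replicate 1 held at most 4.59% of 2528 to 2717 short low genes), so depth is unknown. FPKM summed to 716215 to 734791 per library, and 16774 to 17202 genes reached 1 FPKM.

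A gene was tested if 3 or more of the 6 libraries reached 1 FPKM. The test was limma 3.58.1 in R 4.3.3 with group as the term and a trended prior variance, on log2(FPKM + 1), which understates changes of low genes. P-values were adjusted by Benjamini-Hochberg over all genes tested. The fit was checked on data made from the same genes with known changes, and small changes were recovered less often than large ones. Ratios of levels were tested with exact permutation tests over libraries. Leaving out a library kept the set of genes tested. Alternatives were other pseudocounts, filters and scalings, a replicate block and each library left out.

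Named genes were the 9 members and, from each list, the 2 called genes that changed most and the 2 highest in level; others were named after their values were seen. A few list genes are not reported here. The members and lists were chosen with earlier results of these data known.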

Additional observations from a re-analysis of the deposited data

How the results depend on the processing

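The 7 members called higher stayed 7 under all 14 alternatives. The 2 called lower became 1 with no filter on low values, and 1 to 2 with a library left out, since Lifr no longer passed; its adjusted p reached 0.074. The other 8 members kept their call in all 14. With a pseudocount of 0.1 the log2 changes were 4.29 for Lif and 5.10 for Osm. Other genes of the pathway called higher numbered 39 to 45 (40 as reported) and lower 5 to 7 (6 as reported). Il11ra1 was at 0.077 under median-ratio scaling and −0.055 to 0.058 with a library left out, never past the threshold. The log2 difference of the Osmr to Lifr ratio stayed between 2.64 and 3.49, and that of Il6st to its partners between 0.13 and 0.29. Deviations of same-numbered libraries correlated at −0.0076, −0.039 and 0.022, and those of differently numbered ones at −0.035 to 0.038. These values cannot settle whether the numbers pair libraries. With the replicate block 7 members were higher and 2 lower. What limits precision here is 3 libraries per group and an unknown depth, most of all for Lif and Osm in sham cord.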
